A study of Mus musculus with 5 samples.

Results

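The 9 complement genes C1qa, C1qb, C1qc, C1ra, C1s1, C3, C4b, C7 and Serping1 were followed by cell of origin in single-cell RNA sequencing of adult mouse cardiac interstitial cells. They are 9 of the 17902 genes listed in at least 1 of 5 libraries. The genes were chosen by name. Their transcripts were read in fibroblasts (cells with a transcript of Pdgfra, the platelet-derived growth factor receptor alpha), macrophages (3 or more transcripts of C1qa), endothelial cells (a transcript of Cdh5, VE-cadherin) and pericytes (a transcript of Kcnj8, a potassium channel subunit). For the C1q genes themselves the macrophage gate was a transcript of Csf1r, the receptor of colony-stimulating factor 1, so that no gene was read through its own gate. All 9 were listed in 3 libraries, and C7 alone was missing from the tables of cKit+/DDR2- replicate 1 and of the cKit+/DDR2+/CD45+ library, where it was taken as 0.

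Complement is a cascade of secreted proteins that marks surfaces for clearance and can end in a membrane pore. In the classical pathway the C1q molecule, built from the chains of C1qa, C1qb and C1qc, binds its target, the serine proteases C1r and C1s bound to it cleave C4, and the resulting convertase cleaves C3, the component on which all pathways converge. C7 belongs to the terminal pore complex, and Serping1 encodes C1 inhibitor, a serpin that inactivates C1r and C1s. The liver supplies most circulating complement, while C1q is known to come largely from macrophages and other myeloid cells.

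In these hearts the genes of the classical pathway were split between cell classes. The C1q chains belonged to macrophages. C1ra, C1s1, C3, C7 and Serping1 were highest in fibroblasts, and the pericyte-gate cells of the cKit-/DDR2+ library carried C1s1 at the fibroblast level together with Serping1. C4b had no single source. Among sums of at least 20 cells, its level was highest in fibroblasts in the cKit-/DDR2+ library and in macrophages in the cKit+/DDR2+/CD45+ library. In the former macrophages, and in the latter fibroblasts, were too few for a sum. In cKit+/DDR2- replicate 2 no class led beyond counting error.

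The hearts were digested with collagenase II, cardiomyocytes were removed, and the remaining cells were sorted by antibodies to cKit, a receptor tyrosine kinase, and DDR2, a collagen receptor used to enrich fibroblasts. The 4 sorts were cKit-/DDR2+ (1 library), cKit+/DDR2- (2 libraries, replicates 1 and 2), cKit+/DDR2+/CD45- (1 library) and cKit+/DDR2+/CD45+ (1 library), CD45 being the common leukocyte antigen. No treatment or mutant allele is named for any sort, and the labels give neither age beyond adult, nor strain, nor the number of hearts, so the libraries may share animals and p-values measure only the spread between these libraries. In that order the libraries held 2280, 436, 3020, 1327 and 3898 cells, with total transcript counts from 4047326 to 44847778 and medians of 7529 to 10972 transcripts per cell. A transcript here is a unique molecular identifier (UMI), and levels are UMIs of the gene per 1000000 UMIs (CPM) over the summed cells of a gate, with exact Poisson 95% intervals that cover counting error only. Because the kit reads transcript ends, CPM was compared between cells and not between genes.

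The gates overlapped, so results below use cells that passed 1 gate only unless stated. Fibroblast-gate cells numbered 1281 (70.2% in that gate only), macrophage-gate cells 4121 (94.9%), endothelial-gate cells 5026 (88.0%) and pericyte-gate cells 341 (12.9%). Of the Kcnj8-positive cells, 57.8% also had Cdh5 and 28.2% also had Pdgfra, so the pericyte gate as written was largely a mixture. The 28 cells of the cKit-/DDR2+ library in that gate only were the single pericyte sum of at least 20 cells, and they carried the pericyte marker Rgs5 at 10856 CPM. The summed level of 5 fibroblast markers (Dcn, Col1a1, Gsn, Col3a1, Lum) ran from 44965 to 62544 CPM in fibroblast-only cells, from 733 to 2157 CPM in endothelial-only cells and from 131 to 194 CPM in macrophage-only cells, and it was 3973 CPM in the pericyte-only cells. The sort names did not fix the cell class: endothelial-gate cells made up 58.6% of the cKit-/DDR2+ library and 90.5% of the cKit+/DDR2+/CD45- library, and macrophage-gate cells 90.9% of the cKit+/DDR2+/CD45+ library.

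The cKit+/DDR2+/CD45+ library shared 190 cell barcodes with cKit+/DDR2- replicate 1, against at most 3 for any other pair of libraries. Those barcodes had a median of 12133.5 UMIs in replicate 1 and 622.5 in the CD45+ library. They supplied 37 of the 109 endothelial-only cells of the CD45+ library and no fibroblast-gate cell. Leaving them out moved Serping1 in those endothelial-only cells from 19.6 to 20.6 CPM and C1qa (Csf1r gate, 123 cells with and 86 without) from 328 to 335 CPM, and the counts of the 9 genes called in each contrast below stayed at 5, 5, 2, 8 and 3.

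The 3 C1q genes lie side by side on chromosome 4 (GRCm38.p6, RefSeq): C1qb at chr4:136880126-136886200, C1qc at chr4:136889801-136892936 and C1qa at chr4:136895916-136898844. C1ra (chr6:124512621-124523440) and C1s1 (chr6:124530344-124542392) neighbour each other on chromosome 6, next to their near-identical copies C1rb and C1s2, so how reads were divided within these pairs is uncertain. C3 (chr17:57203967-57228136) and C4b (chr17:34728139-34743902) are on chromosome 17, C7 (chr15:4987750-5063773) is on chromosome 15 and Serping1 (chr2:84765360-84775444) is on chromosome 2. RefSeq promoter windows, 250 bases before to 50 after the transcription start, were found for 6 of the 9 genes. They were searched on both strands for GAGGAA (the PU-box core bound by the myeloid factor PU.1), TTGCNNAA (a C/EBP-type site), TTCNNNGAA (a STAT-type GAS element) and the core of the interferon-stimulated response element, and no 2 matches in these 6 genes overlapped. The windows of C1qb (chr4:136886151-136886450, minus strand), C1qc (chr4:136892865-136893164, minus strand) and C3 (chr17:57228087-57228386, minus strand) are shown because they stand for the macrophage-borne and the fibroblast-borne end of the pathway. Capitals mark the PU-box core in C1qb and C1qc, read as TTCCTC on the printed strand of C1qc, and the C/EBP-type site in C3.
C1qb: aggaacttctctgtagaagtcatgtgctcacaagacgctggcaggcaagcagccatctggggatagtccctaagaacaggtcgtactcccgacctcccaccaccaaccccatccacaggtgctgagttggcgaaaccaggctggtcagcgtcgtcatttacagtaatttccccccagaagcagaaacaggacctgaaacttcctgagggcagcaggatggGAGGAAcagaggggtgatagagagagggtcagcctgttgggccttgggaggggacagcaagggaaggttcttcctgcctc
C1qc: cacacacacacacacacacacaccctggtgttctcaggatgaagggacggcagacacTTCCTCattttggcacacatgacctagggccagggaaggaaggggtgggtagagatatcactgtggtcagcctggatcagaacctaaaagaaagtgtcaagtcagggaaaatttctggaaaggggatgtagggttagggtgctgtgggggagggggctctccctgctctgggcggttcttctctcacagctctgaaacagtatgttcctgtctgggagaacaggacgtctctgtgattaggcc
C3: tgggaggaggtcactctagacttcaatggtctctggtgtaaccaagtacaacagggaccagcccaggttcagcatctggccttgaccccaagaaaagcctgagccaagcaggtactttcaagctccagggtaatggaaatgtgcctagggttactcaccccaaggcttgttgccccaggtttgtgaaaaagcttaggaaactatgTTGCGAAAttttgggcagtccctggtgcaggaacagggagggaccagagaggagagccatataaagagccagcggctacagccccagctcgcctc
The PU-box core began at position -30 from the start in C1qb and at position -193 in C1qc, and the C/EBP-type site at position -45 in C3. Of 32851 promoter windows, 28.3% held GAGGAA and 10.8% held TTGCNNAA. The C1ra window held both, and also TTCNNNGAA (8.30% of windows), which was the match found in C7, and 1 of the 2 windows of C1s1 held TTGCNNAA. The interferon element's core (3.44% of windows) was found in none of the 6 genes, and each match is a run of letters and not a measured site.

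C1q, the recognition molecule, was macrophage RNA in each library that held macrophages. In Csf1r-gated macrophages C1qa stood at 5025, 4719 and 5998 CPM in cKit+/DDR2- replicate 1, replicate 2 and the cKit+/DDR2+/CD45+ library. C1qb stood at 3359, 2943 and 3734 CPM and C1qc at 2409, 2046 and 2603 CPM in the same order. All 3 chains were lowest in replicate 2 and highest in the CD45+ library. In endothelial-only cells of the 5 libraries, in the order given above, C1qa was at 0.687, 6.56, 19.3, 0.483 and 328 CPM, and in fibroblast-only cells of the cKit-/DDR2+ library, replicate 2 and the CD45- library it was at 0.474, 13.6 and 0 CPM. No macrophage library overlapped an endothelial or fibroblast one. Macrophage levels exceeded endothelial levels by 7.20 ± 0.77 (SE) for C1qa, 6.98 ± 0.75 for C1qb and 7.34 ± 0.76 for C1qc on the log2(CPM + 1) scale (limma with library as block, 3 macrophage and 5 endothelial sums, Benjamini-Hochberg adjusted p = 0.00016, 0.00016 and 0.00013). Of all C1qa UMIs in the 5 libraries, 96.5% were in macrophage-only cells, as were 96.4% of those of C1qb and of C1qc.

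The 3 chains kept nearly constant proportions. C1qa, C1qb and C1qc made up 48.6%, 30.3% and 21.1% of the C1q UMIs of macrophages in replicate 2 and 48.6%, 30.3% and 21.1% in the CD45+ library, against 46.6%, 31.1% and 22.3% in the 24 macrophages of replicate 1. The low C1q counts outside macrophages moved with the library. Summed over the chains, endothelial-only cells held 2.23, 14.1, 39.2, 0.966 and 658 CPM in libraries whose macrophage-gate shares were 0.833%, 7.80%, 21.6%, 0.226% and 89.8%. These were 1.61% to 7.03% of each library's own C1q level, and fibroblast-only cells of replicate 2 stood at 1.41%. In endothelial-only cells of replicate 2 the chain shares were 49.3%, 33.9% and 16.9%, the last with an exact 95% interval of 14.0% to 20.1% that lies below the macrophage share. The part of free RNA or of doublets in these counts was not tested. Within macrophages, cells with a transcript of Folr2, a marker of resident cardiac macrophages, held more C1qa than cells with Ccr2, a monocyte chemokine receptor, and no Folr2: 6075 against 2537 CPM in replicate 2 and 6269 against 4513 CPM in the CD45+ library. Cells with neither transcript stood near the former, at 5686 and 5883 CPM.

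C1ra and C1s1, the proteases that ride on C1q, were highest in fibroblasts. Of all C1s1 UMIs 70.6% were in fibroblast-only cells. Of all C1ra UMIs 43.6% were in fibroblast-only, 24.0% in endothelial-only and 17.6% in macrophage-only cells, and endothelial-only cells held 76.3%, 58.9% and 76.2% of them in replicate 1, replicate 2 and the CD45- library. These endothelial-only cells were 352 of 436, 1768 of 3020 and 1120 of 1327 cells. Their C1ra level was 94.1%, 108% and 87.9% of that of the whole library, so these shares go with cell numbers. C1ra stood at 106, 106 and 101 CPM in fibroblasts of the cKit-/DDR2+ library, replicate 2 and the CD45- library, and C1s1 at 119, 137 and 120 CPM. The fibroblast libraries agree within counting error for C1ra, with intervals of 100 to 113, 89.6 to 124 and 74.9 to 134 CPM. In endothelial cells of the 5 libraries C1ra was at 7.33, 21.6, 24.5, 21.1 and 9.78 CPM and C1s1 at 6.99, 1.52, 3.05, 1.83 and 3.91 CPM. In macrophages of replicate 1, replicate 2 and the CD45+ library C1ra was at 21.1, 8.53 and 11.8 CPM, whereas C1s1 had 0, 1 and 5 UMIs among 22, 517 and 3362 cells (0, 0.198 and 0.121 CPM). Fibroblasts thus lay above every endothelial and macrophage library for both genes. The fibroblast level exceeded the endothelial one by 2.81 ± 0.37 (log2, SE) for C1ra and 4.82 ± 0.37 for C1s1 (limma, adjusted p = 0.00072 and 4.9e-05). C1s1 passed the filter of the limma fit (10 CPM in a sum) only through its fibroblast and pericyte sums. Its endothelial sums reached at most 6.99 CPM and its macrophage sums at most 0.198 CPM, both under that filter. Within the cKit-/DDR2+ library, replicate 2 and CD45-, its fibroblast to endothelial count ratio was log2 4.09, 5.49 and 6.03. Macrophages were below endothelial cells for C1s1 by a log2 difference of -1.80 ± 0.37 (limma, adjusted p = 0.0049), a call that was lost without replicate 2 (log2 difference -1.73, adjusted p = 0.069), while for C1ra the difference of -0.35 ± 0.37 was not called (adjusted p = 0.48). In the 28 pericyte-only cells C1s1 was at 136 CPM (19 UMIs, 81.6 to 212 CPM), above the endothelial cells of the same library by 4.28 (log2, exact interval of the count ratio 3.41 to 5.09), and C1ra at 35.7 CPM (5 UMIs). The copies C1rb and C1s2 followed: C1rb was at 109, 77.1 and 72.3 CPM and C1s2 at 38.2, 24.5 and 22.7 CPM in fibroblasts, and C1s2 at 57.1 CPM in the pericyte-only cells and 0 in all 3 macrophage sums.

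Among sums of at least 20 cells, C4b, a mouse C4 gene, led in different classes in different libraries. It has a close copy, C4a, so how reads were divided between them is uncertain. In fibroblasts it stood at 58.2 CPM (53.7 to 63.0) in the cKit-/DDR2+ library, 2.10 CPM (3 UMIs, 0.433 to 6.14) in replicate 2 and 10.3 CPM (5 UMIs, 3.36 to 24.1) in the CD45- library. In macrophages it was at 0, 3.97 and 21.1 CPM in replicate 1, replicate 2 and the CD45+ library, and in endothelial cells of the 5 libraries at 3.58, 0.914, 6.10, 4.73 and 1.96 CPM. The 8 macrophage-only cells of the cKit-/DDR2+ library, too few for a sum, held 41 UMIs of C4b, 30 of them in 1 cell. The CD45+ library had 3 fibroblast-only cells, and its 29 Pdgfra-positive cells held C4b at 56.4 CPM. The libraries of the 3 classes overlapped, and no contrast between them was called: fibroblast minus endothelial was 1.20 ± 0.92 (log2, SE; limma, adjusted p = 0.38), and without the cKit-/DDR2+ library it was 0.07 (adjusted p = 0.97). Macrophage minus endothelial was 0.86 ± 0.92 (adjusted p = 0.48) and fibroblast minus macrophage 0.34 ± 1.16 (adjusted p = 0.85). The fibroblast level in the cKit-/DDR2+ library was 5.63-fold that of the CD45- library (log2 of CD45- over cKit-/DDR2+ -2.49, interval -4.12 to -1.26) and 27.7-fold that of replicate 2. The macrophage level in the CD45+ library was 5.31-fold that of replicate 2 (log2 2.41, 1.77 to 3.13), and the 22 macrophages of replicate 1 with no UMI allow up to 12.7 CPM (3 UMIs).

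Among C1ra, C1s1, C3, C4b, C7 and Serping1, C4b was also the most unevenly spread in fibroblasts of the cKit-/DDR2+ library. In the cKit-/DDR2+ library 10% of the fibroblasts (74 of 733 cells) held 86.8% of its UMIs, and 1 cell alone held 62, against 17.3% for Serping1, 32.7% for C3 and 61.7% for C7 in their own leading 10%. Fibroblasts of that library with no transcript of Pi16, a gene of the adventitial type of fibroblast, held C4b at 158 CPM and those with Pi16 at 35.5 CPM, a 4.45-fold difference (log2 of Pi16-positive over Pi16-negative -2.16, interval -2.39 to -1.92). C1s1 differed by 1.46-fold between these cells and C1ra, C3, C7 and Serping1 by less. In replicate 2, with 3 UMIs of C4b in all, the comparison could not be made. In the macrophages of the CD45+ library C4b was at 26.4 CPM in cells with Folr2, 4.61 CPM in cells with Ccr2 and no Folr2 and 7.67 CPM in cells with neither, while in replicate 2 the values were 4.78, 3.54 and 2.86 CPM. The libraries that were low for C4b in fibroblasts, replicate 2 and CD45-, are also the ones with Xist RNA (496 and 757 CPM, against at most 0.0669 CPM in the other 3) and with no RNA of the Y-linked Ddx3y (58.8 to 98.6 CPM in the other 3), so the sort and the sex of the hearts cannot be told apart. Of these sorts cKit+/DDR2- alone had 2 libraries, so the differences carry counting error only.

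C3, the convergence point of the pathways, stood at 743, 673 and 649 CPM in fibroblasts of the cKit-/DDR2+ library, replicate 2 and the CD45- library. In endothelial cells of the 5 libraries it was at 21.7, 10.7, 11.3, 3.38 and 11.7 CPM and in macrophages at 0, 6.15 and 10.8 CPM. The lowest fibroblast library was above the highest of the others, and the fibroblast libraries lay within 1.15-fold of each other. Fibroblasts exceeded endothelial cells by 5.87 ± 0.63 (log2, SE; limma, adjusted p = 0.00023) and macrophages by 7.26 ± 0.80 (adjusted p = 0.00022). The pericyte-only cells held 1 UMI of C3 (7.13 CPM, 0.181 to 39.7), and fibroblasts exceeded them by 6.93 ± 1.03 (limma, adjusted p = 0.0026), a sum of 1 library that is assumed to vary like the others. With each cell thinned to 3000 UMIs, 471 of 727, 76 of 125 and 17 of 34 fibroblasts held a C3 transcript, against 2.65%, 2.50% and 0.960% of endothelial cells of the same libraries and 1.42% of macrophages in replicate 2. Thinning left out 6, 2 and 1 shallower fibroblasts and 205, 51 and 78 endothelial cells. Before it the fibroblast shares were 82.5%, 71.7% and 65.7%, at median depths of 14226, 10632 and 14131 UMIs against 5276.5, 9230 and 9408 in endothelial cells. Of all C3 UMIs 72.6% were in fibroblast-only cells, 15.1% in cells of 2 or more gates and 4.39% in macrophage-only cells. The 11 macrophage-gate cells of the cKit-/DDR2+ library held 118 C3 UMIs, of which 76 were in 1 cell.

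C7, a component of the terminal complex, was low outside fibroblasts. It stood at 47.3, 9.11 and 8.27 CPM in fibroblasts of the cKit-/DDR2+ library, replicate 2 and the CD45- library. Endothelial-only cells held 6 UMIs in the cKit-/DDR2+ library (1.02 CPM) and none in the other 4, and none of the macrophage-only or pericyte-only sums held a UMI, which for the 3362 macrophages of the CD45+ library allows up to 0.0725 CPM (3 UMIs). Within a library fibroblasts exceeded endothelial cells 46.2-fold in the cKit-/DDR2+ library. Against a floor of 3 UMIs in the endothelial sum, the ratio was 48.8-fold in replicate 2 (13 UMIs) and 28.5-fold in the CD45- library (4 UMIs). These 2 values are not lower bounds, since they leave out the counting error of the fibroblast UMIs. The exact intervals of these 2 count ratios began lower, at log2 5.10 and 3.82. C7 passed the filter of the limma fit through the fibroblasts of the cKit-/DDR2+ library and fell under it without that library, so its limma calls counted below rest on that library. Like C4b, C7 was lower in the other fibroblast libraries than in cKit-/DDR2+, by a log2 ratio of -2.38 (-3.30 to -1.59) in replicate 2 and of -2.52 (-4.40 to -1.15, from 4 UMIs) in CD45-. Unlike C4b it did not follow Pi16: it was at 46.6 CPM in Pi16-positive and 50.1 CPM in Pi16-negative fibroblasts of the cKit-/DDR2+ library. Of all C7 UMIs 86.4% were in fibroblast-only cells.

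Serping1, the inhibitor of C1r and C1s, was carried by nearly every fibroblast. It stood at 2040, 1698 and 1579 CPM in fibroblasts of the cKit-/DDR2+ library, replicate 2 and the CD45- library, and 98.5%, 96.8% and 100% of them held a transcript after thinning to 3000 UMIs, against 1.22% of macrophages in replicate 2 and 0.244% in the CD45+ library. Endothelial cells of the 5 libraries held 49.1, 20.4, 57.8, 40.4 and 19.6 CPM, and macrophages 0, 2.78 and 0.990 CPM. The 3 classes did not overlap: fibroblasts were above endothelial cells by 5.14 ± 0.21 (log2, SE; limma, adjusted p = 7.8e-06), and macrophages below endothelial cells with a difference of -3.86 ± 0.21 (adjusted p = 6.1e-06). The pericyte-only cells carried a fibroblast marker sum of 3973 CPM, against 1632 CPM in the endothelial-only cells of the same library, and its part in their level was not tested. They stood between, at 364 CPM (271 to 478), 2.76 ± 0.34 above endothelial cells (limma, adjusted p = 0.00093) and with fibroblasts 2.38 ± 0.34 above them (adjusted p = 0.0023). With the cells of 2 or more gates kept, pericyte minus endothelial was 1.84 and was not called (adjusted p = 0.15), and with the gate replaced by other marker genes it was 1.05 (adjusted p = 0.31).

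**Figure D1:**
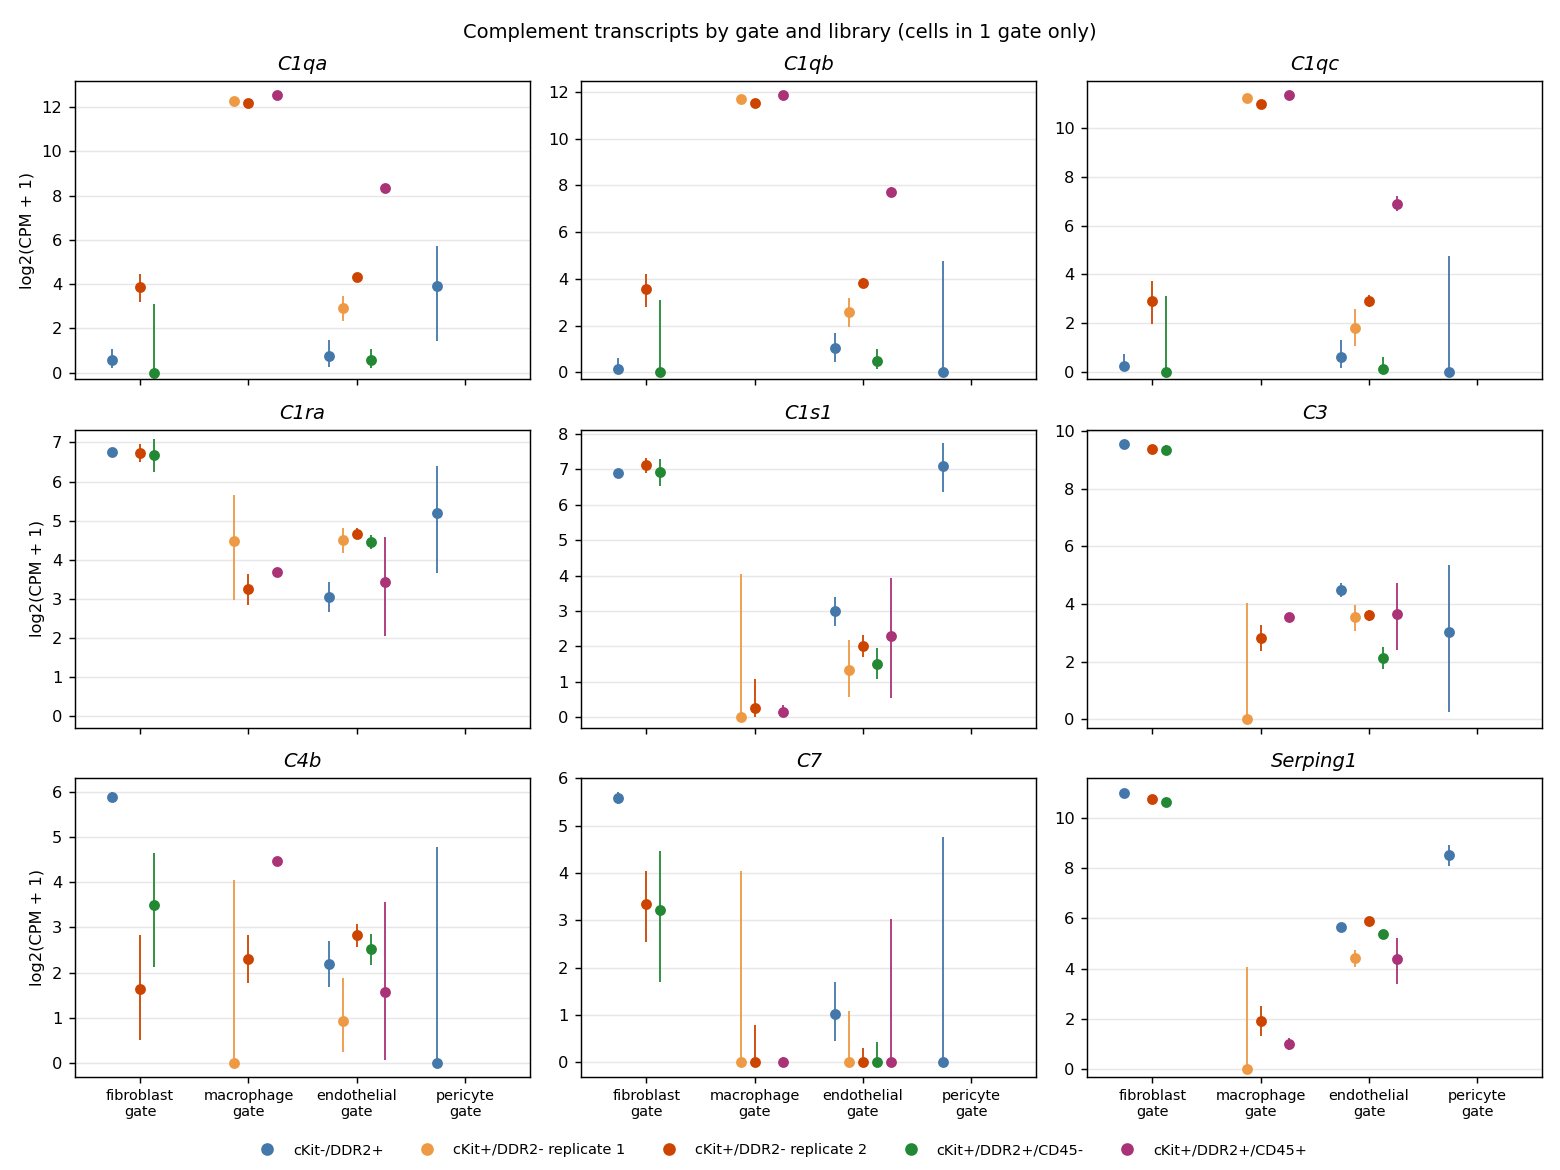
Level of each gene as log2(CPM + 1) in cells that passed 1 gate only, 1 point per library with at least 20 such cells, bars being exact Poisson 95% intervals. The C1q genes use the Csf1r macrophage gate and stand highest in macrophages, Serping1 and C3 stand highest in fibroblasts, and C4b runs from 2.10 to 58.2 CPM among the 3 fibroblast libraries.

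With all cells of a gate, as the gates are written, the fibroblast values were lower in the libraries where the fibroblast gate overlapped the endothelial one. Serping1 was at 1959, 1390, 961 and 1432 CPM and C3 at 693, 534, 369 and 508 CPM in the cKit-/DDR2+ library, replicate 2, CD45- and CD45+. In the CD45+ library 26 of the 29 Pdgfra-positive cells also passed the macrophage gate, and they held C1qa at 1439 CPM beside C3. C4b there was at 56.4 CPM, from 22 UMIs in 4 cells. The whole Kcnj8 gate held Serping1 at 1107, 72.6, 382, 141 and 42.1 CPM over the 5 libraries, beside a fibroblast marker sum in that gate of 31237, 72.6, 12024, 3286 and 298 CPM. The order was the same for the first 3 ranks, while replicate 1 was above CD45+ for Serping1 and below it for the markers. What the overlapping cells add to these values was not tested.

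**Figure D2:**
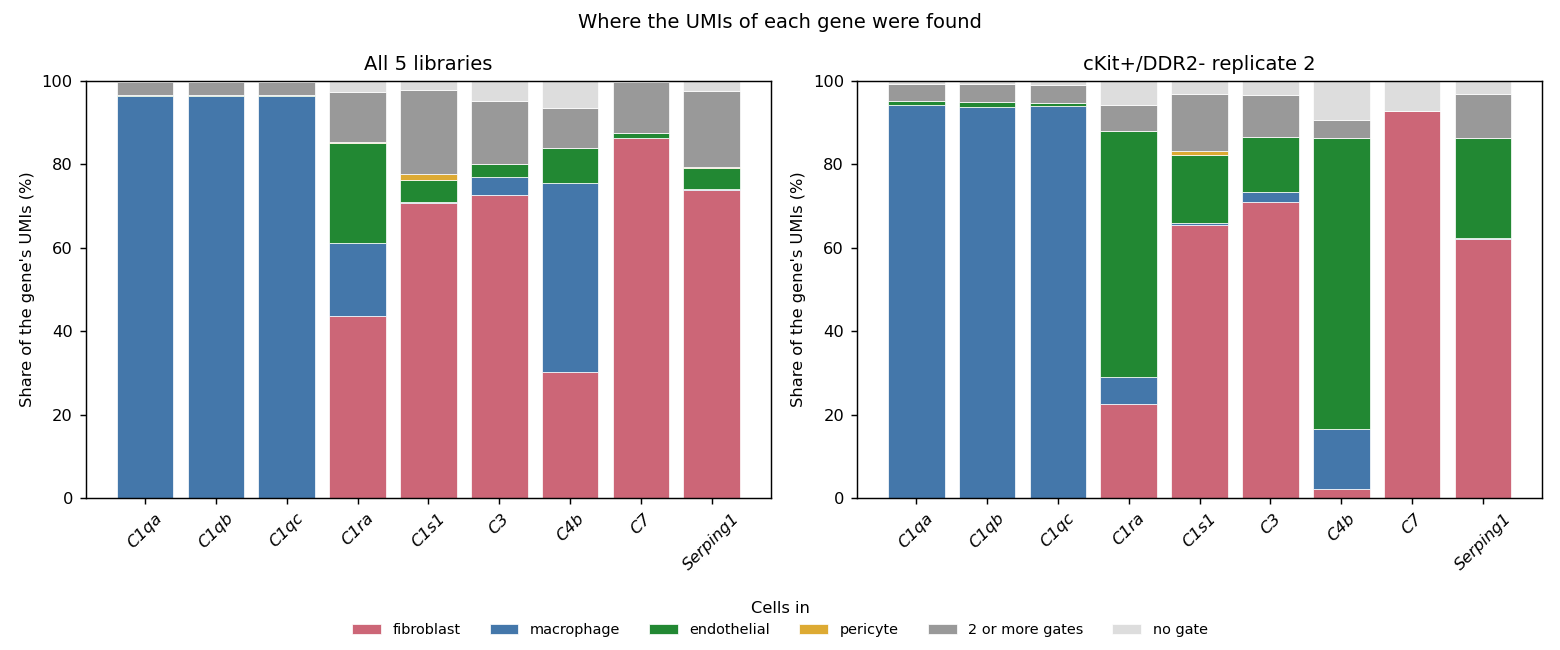
Share of each gene's UMIs, in percent, by the gate of the cell they were found in, for all 5 libraries together and for cKit+/DDR2- replicate 2 alone. The C1q genes come from macrophages in both panels, while C4b moves from 45.3% macrophage-only and 30.2% fibroblast-only over all libraries to 70.0% endothelial-only in replicate 2. Endothelial-only cells were 1768 of the 3020 cells of replicate 2.

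Counted over the 9 genes, the contrasts between classes gave the following. Fibroblasts were higher than endothelial cells for 5 genes (Serping1, C1s1, C3, C1ra and C7, the last through the cKit-/DDR2+ library, without which 4 were called) and lower for none, where 10.6% of the 11187 genes tested were called higher and 12.6% lower (10.8% and 12.3% in the fit the C1q genes are read from; limma, adjusted p below 0.05 and at least 2-fold). The median difference of the 9 genes was 2.81 (log2), and of all genes -0.11. C1s1 passed the filter of the fit only through its fibroblast and pericyte sums, and C7 only through the fibroblasts of cKit-/DDR2+. That limit holds for the calls of both genes in each contrast counted here, since they were tested only because they were high there. Macrophages were higher than endothelial cells for the 3 C1q genes, with 11.6% of 11246 genes called higher and 21.5% lower in the fit with the Csf1r gate, and lower for Serping1 and C1s1, with 11.5% called higher and 21.7% lower in the fit with the C1qa gate. Pericyte-only cells were higher than endothelial cells for C1s1 and Serping1 and lower for none, with 11.4% of genes called higher and 16.4% lower (12.2% and 16.8% in the Csf1r fit), and the count fell to 0 with the cells of 2 or more gates kept and to 1 with other gate genes. Fibroblasts were higher than macrophages for 5 genes, where 18.5% were called higher and 12.5% lower, and lower for the C1q genes by -7.75 ± 0.97, -7.64 ± 0.94 and -7.64 ± 0.96 (log2, SE), where 18.6% were called higher and 12.7% lower. Only replicate 2 supplied sums of both of these classes, and the other libraries were linked through their endothelial sums. Fibroblasts were higher than pericyte-only cells for C3, C7 and Serping1 and lower for none, with 13.4% of genes called higher and 9.72% lower (13.9% and 10.2% in the Csf1r fit), and C1s1 differed by 0.27 ± 0.61 (limma, adjusted p = 0.78). At an unadjusted p below 0.05 in limma, 0 members were lower in fibroblasts than in endothelial cells, 1 (C7) was lower in pericyte-only than in endothelial cells and 1 (C1qa) lower in fibroblasts than in pericyte-only cells. No direction is read for C7, since its pericyte sum held no UMI, which allows up to 21.4 CPM (3 UMIs), against 1.02 CPM in the endothelial cells of that library. None is read for C1qa either, since its pericyte sum held 2 UMIs (14.3 CPM), against 5 UMIs (0.474 CPM) in the fibroblasts of that library. The pericyte sum held no UMI of C1qb or C1qc. Its lack of C7 UMIs also limits the C7 call of fibroblasts over pericyte-only cells. Against a floor of 3 UMIs in the pericyte sum, the C7 ratio was 2.21-fold in the cKit-/DDR2+ library. The exact interval of that count ratio began at log2 0.84.

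**Figure D3:**
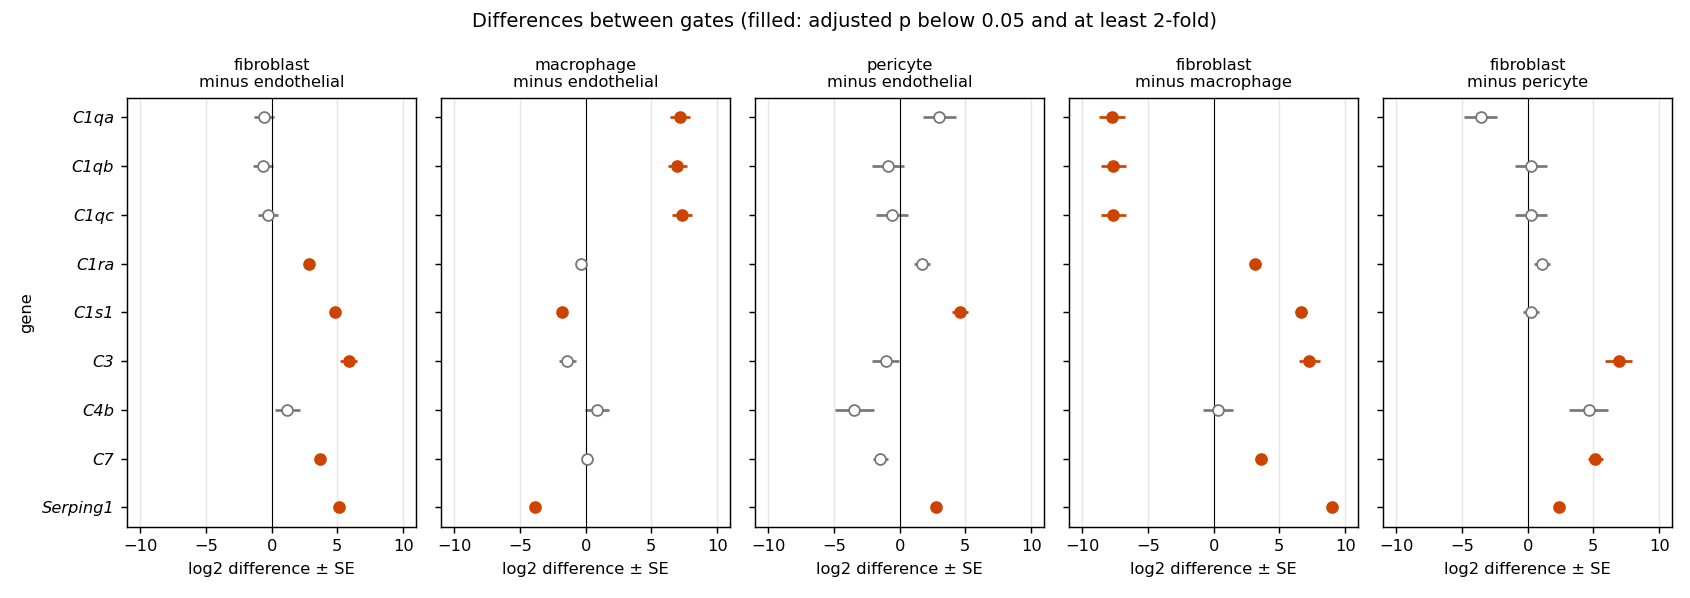
Differences between gates on the log2(CPM + 1) scale with their standard errors from limma, 1 panel per contrast, filled where the adjusted p was below 0.05 and the difference at least 2-fold. The C1q genes and the fibroblast-borne genes lie on opposite sides of 0 in the fibroblast minus macrophage panel, and C4b is filled in none.

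Endothelial cells were not uniform for these genes. Their kinds were set by marker transcripts: an endocardial kind (3 or more of Npr3), a lymphatic kind (2 or more of Mmrn1) and the remaining cells. C3 stood at 64.3, 107 and 44.4 CPM in the lymphatic kind of replicate 1, replicate 2 and the CD45- library, from 66, 191 and 62 cells. It was at 0.571, 1.36 and 0.904 CPM in the endocardial kind and at 0, 1.42 and 0.477 CPM in the remaining cells of the same libraries. The log2 ratio of the lymphatic kind to the remaining cells was 6.24 (4.86 to 8.14, against 4 UMIs) in replicate 2 and 6.54 (4.55 to 9.66, against 2 UMIs) in the CD45- library, and to the endocardial kind 6.82 (4.24 to 12.16, against 1 UMI) in replicate 1. The cKit-/DDR2+ library had under 20 lymphatic cells, and there the remaining endothelial cells themselves held C3 at 22.0 CPM. The fibroblast marker sum over all endothelial-only cells was 1632 CPM in that library and 1738, 2157 and 1924 CPM in replicate 1, replicate 2 and CD45-. Its genes differed in direction. In the same order Gsn was at 727 against 17.4, 68.3 and 52.4 CPM. Col3a1 was at 64.6 against 12.2, 15.8 and 18.5 CPM, and Col1a1 at 29.0 against 4.26, 2.49 and 4.83 CPM. Dcn, at 714 against 1427, 1755 and 1538 CPM, and Lum, at 96.8 against 278, 315 and 311 CPM, went the other way. The part of fibroblast RNA in this C3 level was not tested. The lymphatic kind made up 18.8%, 10.8% and 5.54% of the endothelial-only cells and held 97.1%, 87.3% and 80.0% of their C3 UMIs, with at most 14 UMIs in 1 cell. Its level of the fibroblast marker Dcn was 17.0, 26.5 and 23.8 CPM, below the 164 to 482 CPM of the remaining cells, and Prox1, the lymphatic transcription factor that was not used to set the kind, was at 441 to 646 CPM.

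C1ra was highest in the endocardial kind. Serping1 was above the remaining cells there in replicate 1, replicate 2 and CD45-, and C4b in replicate 2 and CD45-. C1ra was at 25.9, 30.3, 30.5 and 34.2 CPM in the endocardial kind and at 6.32, 10.97, 8.14 and 5.48 CPM in the remaining cells of the cKit-/DDR2+ library, replicate 1, replicate 2 and the CD45- library, higher in 4 of 4. C4b was at 7.93 against 1.77 CPM in replicate 2 and 8.50 against 0.477 CPM in the CD45- library, and in the lymphatic kind it had no UMI in any of 3 libraries. In replicate 1 the endocardial kind held 3 UMIs of C4b (1.71 CPM) and the remaining cells none, which allows up to 2.99 CPM (3 UMIs), so a difference was not detectable at this depth. In the cKit-/DDR2+ library the endocardial kind held no C4b UMI, which allows up to 9.73 CPM (3 UMIs), and the remaining cells 3.79 CPM. Serping1 was at 25.1 against 4.99, 72.9 against 14.2 and 66.0 against 7.39 CPM in the cKit+ libraries, but at 9.73 against 51.1 CPM in the cKit-/DDR2+ library, where the endocardial kind had 34 cells. The lymphatic kind held Serping1 at 34.0, 23.1 and 34.9 CPM in replicate 1, replicate 2 and CD45-. Dcn moved with the endocardial difference in the cKit+ libraries, at 2282 to 2608 CPM in the endocardial kind against 164 to 482 CPM in the remaining cells, and its part in these differences was not tested. C3 was at most 1.36 CPM in the endocardial cells of those libraries.

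**Figure D4:**
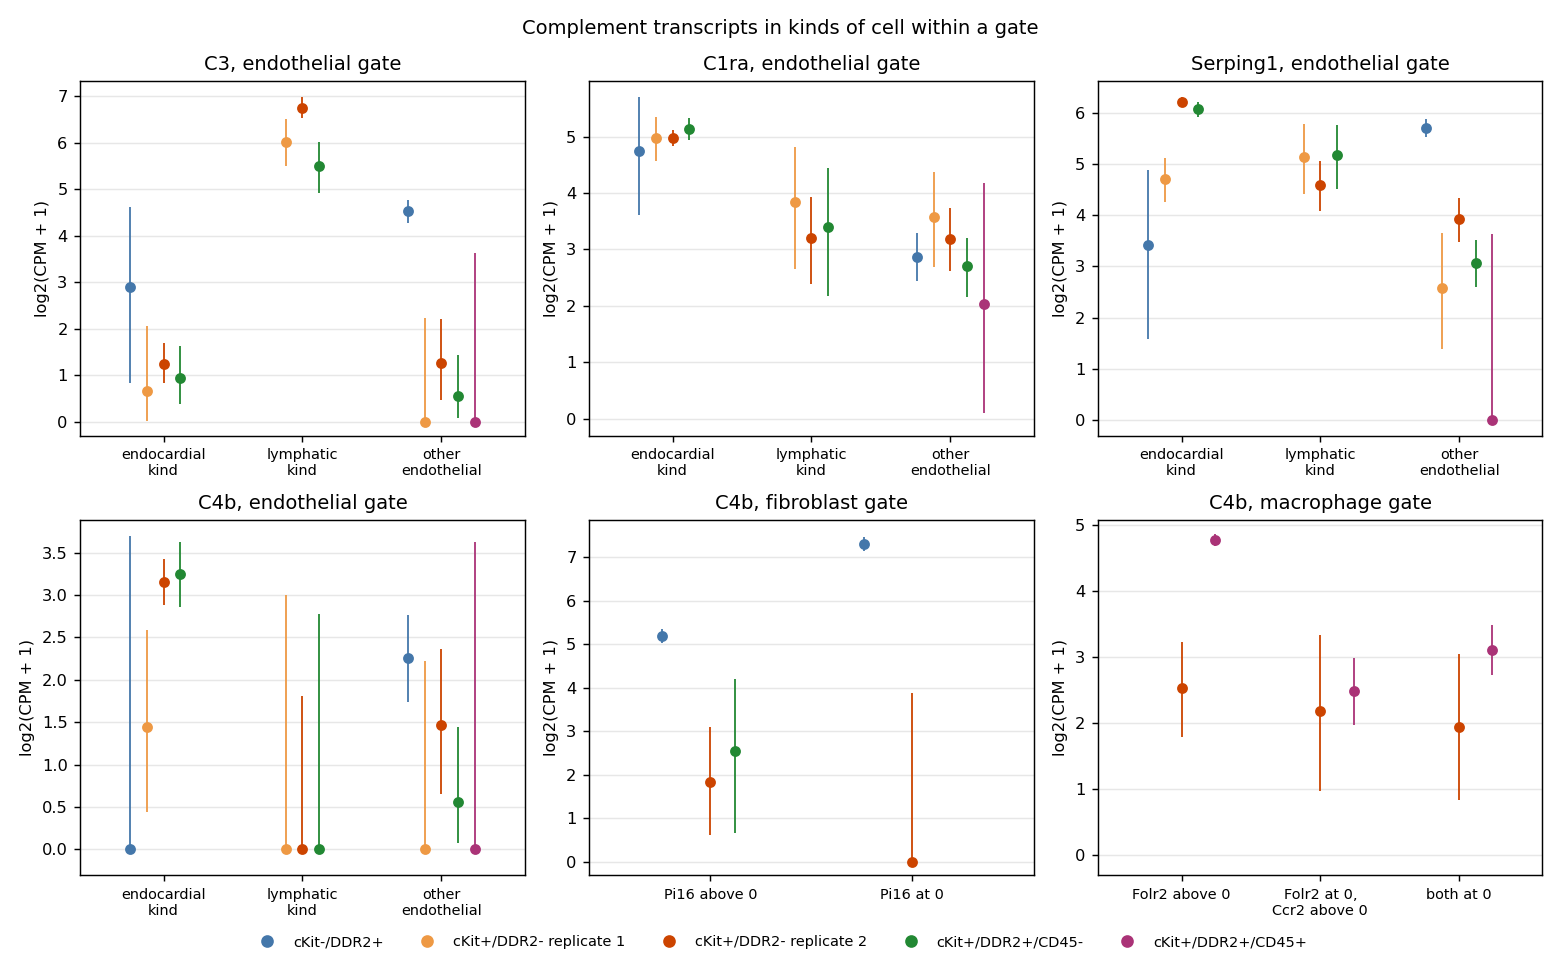
Levels as log2(CPM + 1) within gates, 1 point per library with at least 20 cells and bars showing exact Poisson 95% intervals. C3 stands highest in the lymphatic kind of 3 libraries and C1ra in the endocardial kind of 4, and C4b is at 158 CPM in Pi16-negative and 35.5 CPM in Pi16-positive fibroblasts of the cKit-/DDR2+ library.

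Between sorts, a gene was taken as apart where its level differed at least 2-fold with a count-ratio interval that leaves out 0. In fibroblasts of CD45- against cKit-/DDR2+, C4b and C7 were lower and no member was higher, where 2.01% of 8720 genes were lower and 2.65% higher. In replicate 2 against cKit-/DDR2+ the same pair was lower (1.97% of genes lower) and the C1q trio higher (1.59% higher), and in CD45- against replicate 2 none was apart (2.09% higher, 1.38% lower). C1ra, C1s1, C3 and Serping1 were apart in none of these. With all Pdgfra-positive cells kept, Serping1 joined the lower genes of CD45- against cKit-/DDR2+ at 961 against 1959 CPM (7.53% higher, 3.28% lower), C4b was higher in CD45- than in replicate 2 (4.92% higher, 1.91% lower), and the counts in replicate 2 against cKit-/DDR2+ were unchanged (3.15% higher, 1.87% lower). These ratios carry counting error only and no test. Replicate 2 and CD45- held Xist at 496 and 757 CPM, and cKit-/DDR2+ held none. In the comparisons with cKit-/DDR2+ the sort and the sex of the hearts therefore cannot be told apart, for C7 as for C4b.

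In macrophages of the CD45+ library against replicate 2, C4b was the 1 member higher (0.823% of genes higher) and Serping1 the 1 member lower (0.951% lower), at 0.990 against 2.78 CPM. The Serping1 values were 41 and 14 UMIs, in libraries whose level over all cells was 14.4 and 132 CPM. These macrophage values were 6.88% and 2.10% of the library level, and the part of free RNA in them was not tested. With all gate cells kept, C3 joined C4b and Serping1 was no longer apart (1.02% higher, 0.877% lower). The CD45+ library and replicate 2 also differed in Xist (0.0669 against 496 CPM) and Ddx3y (58.8 against 0 CPM). The sort and the sex of the hearts therefore cannot be told apart in this pair. No member was apart in macrophages of the CD45+ library against replicate 1 (2.1% higher, 2.48% lower; 1.87% and 3.63% with all gate cells) or between replicates 2 and 1 (2.78% and 3.91%; 2.76% and 5.57%), where the 22 cells of replicate 1 left few UMIs to compare.

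In endothelial cells of CD45- against cKit-/DDR2+, C1ra was higher and C1s1 and C3 lower (5.57% of genes higher, 5.21% lower). With all Cdh5-positive cells kept, 7 members were lower and none higher (4.36% higher, 5.94% lower), Serping1 at 43.1 against 431 CPM. Replicate 2 exceeded cKit-/DDR2+ for C1ra and the C1q trio and was below it for C1s1 (8.09% higher, 9.23% lower; 3 and 4 members with all gate cells, 6.66% and 9.75%). CD45- was below replicate 2 for C3 and the C1q trio and above it for none (2.15% higher, 0.938% lower; 2.23% and 1.18% with all gate cells), and against replicate 1 the same 4 genes were lower and C4b higher (1.17% higher, 1.92% lower; 1.28% and 2.14%). The yardstick was the pair of cKit+/DDR2- libraries: replicate 2 was above replicate 1 for 5 of 9 genes, the C1q trio, C4b and Serping1, and below it for none (1.43% higher, 3.54% lower; 4 genes with all gate cells, 1.4% and 3.42%). These replicates also differed in Xist (0 CPM in replicate 1, 496 CPM in replicate 2) and Ddx3y (80.3 and 0 CPM), so the spread between replicates and the sex of the hearts cannot be told apart. Xist was at 757 CPM in CD45- and 0 in cKit-/DDR2+. Of the pairs above, only CD45- and replicate 2 were alike in holding Xist. In the other pairs of sorts the sort and the sex of the hearts cannot be told apart. The endocardial kind numbered 34 cells in cKit-/DDR2+, 1183 in replicate 2 and 472 in CD45-. In the remaining cells C1ra was at 6.32, 8.14 and 5.48 CPM in the same order. The part of the mix of kinds in the differences between sorts was not tested.

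Of 47 other complement genes, receptors and regulators, 24 were tested. Fibroblasts were higher than endothelial cells for 4 and lower for 5 (10.6% and 12.6% of all genes), and macrophages were higher than endothelial cells for 9 and lower for 7 (11.5% and 21.7% of all genes). The anaphylatoxin receptors C3ar1 (165, 206 and 193 CPM) and C5ar1 (406, 246 and 332 CPM), the complement receptor integrin genes Itgam and Itgb2, properdin (Cfp, 76.1, 169 and 176 CPM) and the lectin Fcna were called higher in macrophages than in endothelial cells, C3ar1 by 6.01 ± 0.48 and C5ar1 by 6.11 ± 0.58 (log2, SE; limma, adjusted p = 3.1e-05 and 7.6e-05). Of the membrane regulators tested, Cd55, the decay-accelerating factor, was at 199, 190 and 196 CPM in fibroblasts and 1.78 ± 0.28 above endothelial cells (limma, adjusted p = 0.0018). Cd59a, which blocks the terminal pore, was at 156 to 273 CPM in endothelial cells and the fibroblast difference was -3.50 ± 0.54 (limma, adjusted p = 0.0016). For Cr1l, which encodes the rodent C3 regulator Crry, the difference of -0.44 ± 0.20 was not called (limma, adjusted p = 0.13). Clusterin (Clu), a fluid-phase inhibitor of the pore, was also lower in fibroblasts than in endothelial cells, with a difference of -5.36 ± 0.72 (adjusted p = 0.00075). In pericyte-only cells vitronectin (Vtn, itself on the list of pericyte markers) was at 1662 CPM and the collectin gene Colec11 at 728 CPM, with Colec11 5.63 ± 0.94 above endothelial cells (limma, adjusted p = 0.0034). Over all contrasts, pericytes were higher than endothelial cells for 5 and lower for 4 of the 24 (11.4% and 16.4% of all genes). Fibroblasts were higher than macrophages for 5 and lower for 10 (18.5% and 12.5%), and higher than pericytes for 2 and lower for 4 (13.4% and 9.72%).

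The genes most like each member were found by Pearson's r of log2(CPM + 1) across the 12 class sums, which share libraries and cell classes. Because the sums are set by cell class, genes high in the same class correlate by construction. The matches therefore add nothing on cell of origin. C1qb and C1qc were each other's nearest gene (r = 0.998), and C1qa was nearest to Tyrobp, a myeloid signalling adaptor (r = 0.998). Serping1 was nearest to the collagen gene Col1a2 (r = 0.997), C1s1 to Naalad2 (0.996), C7 to Hmcn2 (0.984), C3 to B3gnt9 (0.969) and C1ra to Chpt1 (0.961). C4b had no near match, its highest r being 0.759 with Ergic3. These values describe 12 sums and carry no test.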

How the data were processed

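The authors deposited 1 table per library of natural log values, ln(1 + UMIs per 10000), made with Cell Ranger (version not given) and Seurat 4.0.4 on mm10, per the submitters' processing notes; the kit was Chromium 3' 3.1, per the labels. A cell's smallest value above 0 stands for 1 UMI, from which UMIs were recovered as whole numbers (100% of values within 0.01), and genes missing from a table were taken as 0; each library's rarest genes may therefore be understated. No doublet caller was run. UMIs were summed per library and gate over cells of 1 gate only, at least 20 cells, and log2(CPM + 1) was tested with limma 3.58.1 (R 4.3.3; trend, library as block, all 4 gates in 1 fit, genes with at least 10 CPM in a sum, Benjamini-Hochberg adjustment over all genes, gate genes left out). The 12 sums leave 4 residual degrees of freedom. Differences between sorts had no test. On simulated data the fibroblast minus endothelial contrast recovered 165 of 200 changed genes among 10204 and called 2 unchanged ones. There all gates of a library were drawn from its endothelial profile with a fixed dispersion. Only genes at 10 CPM or more on average were changed, so these rates need not hold for the real contrast. The 9 genes are given in full, and others of a 47-gene pathway list where called or at 50 CPM or more in a sum; the members and lists were chosen with earlier results of these data known. Alternatives covered gate definitions, the cell minimum, pseudocount, filter, weighting, centring and each library left out. 1 gene of the pathway list is not reported here.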

Additional observations from a re-analysis of the deposited data

How the results depend on the processing

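The removal of shared barcodes was chosen after seeing the data. Of 310 results of single genes called in a contrast and refitted under an alternative, 301 kept direction and call and 9 lost the call; of 281 not called, 250 stayed so, 9 gained a call and 22 changed sign. Keeping cells of 2 or more gates lowered the count of genes called in fibroblast minus endothelial from 2593 to 1492, in pericyte minus endothelial from 3111 to 303 (of the 9 genes, from 2 to 0) and in fibroblast minus pericyte from 2586 to 895 (of the 9 genes, from 3 up to 5). Other gate genes gave 670 genes and 1 of the 9 for pericyte minus endothelial. Leaving out 1 library at a time gave 2200 to 3416 genes for fibroblast minus macrophage (main 3466, and 3447 without the shared barcodes; lowest without cKit+/DDR2- replicate 2), and 1661 to 3023 genes and 3 to 5 of the 9 for fibroblast minus pericyte. It gave 4 to 5 of the 9 for fibroblast minus endothelial and 7 to 8 for fibroblast minus macrophage, lowest without cKit-/DDR2+, where C7 fell under the filter. No pericyte contrast could be fitted without cKit-/DDR2+ or with at least 50 cells.

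Log2 differences that changed sign were all uncalled. With cells of 2 or more gates kept, fibroblast minus endothelial was 0.33 for C1qa, 0.40 for C1qb and 0.34 for C1qc, pericyte minus endothelial was 0.62 for C1qb, 0.56 for C1qc and 1.16 for C3, and fibroblast minus pericyte was -0.22 for C1qb and -0.22 for C1qc. With a stricter gate C1qc was 0.23 in fibroblast minus endothelial and C3 was 2.44 in pericyte minus endothelial. Other gate genes gave 0.014 for C1qc in fibroblast minus endothelial, 1.08 for C1qb and 1.65 for C1qc in pericyte minus endothelial, and -1.42 and -1.64 in fibroblast minus pericyte. C1ra in macrophage minus endothelial was 0.034 with each cell weighted equally and -0.63 to 0.11 with 1 library left out (0.11 without replicate 2). With 1 library left out C4b was -0.065 (without CD45+) to 1.68 in macrophage minus endothelial and -0.57 (without cKit-/DDR2+) to 1.35 in fibroblast minus macrophage, where it was -0.32 without replicate 1 and, with at least 50 cells, -0.19. With a pseudocount of 5, C1qb was -0.014 in fibroblast minus pericyte. The cause was not tested.

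Levels over all cells of a gate moved beyond counting error as follows. In CD45+ macrophages C1qa (5895 CPM) was 6078 with a stricter gate, 6035 with other gate genes, 6008 with cells weighted equally and 5998 with cells of 2 or more gates left out. In the same order C1qb (3671) was 3782, 3755, 3705 and 3734, and C1qc (2559) was 2640, 2621 and, with cells of 2 or more gates left out, 2603. In cKit-/DDR2+ fibroblasts C3 (693) was 727, 715 and 743 with a stricter gate, other genes and such cells left out, C7 (42.4) 46.0 and 47.3 with a stricter gate and such cells left out, C1ra (99.9) 106 with them left out, and Serping1 (1959) 2036, 2007, 1904 and 2040 in the order given for C1qa. No paired analysis was possible because, between sorts, the labels share only replicate number 1; the contrasts between gates have library as a block. Small cell numbers limit the pericyte sum (28 cells) and the macrophages of replicate 1 (22 cells).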

Other observations

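Some C3 and C4b RNA lay in cells of no gate. In the cKit+/DDR2+/CD45- library 39.0% of the C3 UMIs (232) were in 4 of the 80 cells without a gate gene, and 195 of them were in 1 cell, where C3 made up 1.33% of all transcripts. That cell also held 79 UMIs of Serping1 and 55 UMIs of 5 mesothelial markers (Msln, Upk3b, Lrrn4, Krt19, Wt1), with 42 of Dcn and 5 of Col1a1. In the cKit-/DDR2+ library 111 cells passed no gate and held 326 C3 UMIs, 93 of them in a cell with 135 UMIs of the mesothelial markers, 59 of Dcn and none of Col1a1. Fibroblast-only cells, by contrast, held these markers at 1.14 CPM in the cKit-/DDR2+ library and at 0 in replicate 2 and CD45-. In the CD45- library 42.9% of the C4b UMIs (54) were also in 4 cells of no gate, led by a cell with 27 UMIs of C4b, 283 of Dcn and 3 each of C1ra and C1s1. These are single cells, and nothing was tested on them.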
